A study of Mus musculus with 8 samples.

Results

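Replication-dependent histone genes were taken as every row of the counts table whose symbol begins with Hist1h, Hist2h, Hist3h or Hist4h, which gave 70 of 52459 genes. They encode the linker histone H1 and the core histones H2A, H2B, H3 and H4, around which DNA is wrapped into nucleosomes. Their transcription rises as a cell enters S phase, when newly made DNA has to be packed, and their mRNAs end in a short stem-loop in place of a poly(A) tail. The stem-loop is bound by the protein SLBP and the end is made with the help of the U7 small nuclear RNP. Many copies of nearly the same gene lie side by side, and a few of them also give longer, polyadenylated transcripts in cells that do not divide. Treg cells are CD4+ T cells that express Foxp3 and restrain immune responses, and part of them divides in the resting animal.

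The study profiled polyadenylated RNA of mouse Treg cells in 8 libraries that form 4 groups of 2: WT and Stim1/2-deficient cells, unstimulated or kept for 16 h with 1 µg/ml of anti-CD3 and anti-CD28. All cells were CD4+CD25hi cells sorted from spleen and lymph nodes of pooled, healthy female C57BL/6 mice heterozygous for Foxp3-YFPcre, in which Cre is driven by the Foxp3 promoter and both Stim1 and Stim2 are floxed. The WT cells were the YFP-negative and the Stim1/2-deficient cells the YFP-positive cells of such mice, so that the WT cells carried the floxed alleles as well and the genotype is bound to use of the Cre allele. STIM1 and STIM2 sense calcium in the endoplasmic reticulum and open the store-operated calcium channel. Replicates carry the numbers 3 and 4 in unstimulated WT cells and 1 and 2 elsewhere. Unstimulated libraries were sequenced on lane 4 and stimulated ones on lane 1, so that stimulation and lane cannot be told apart. The methods give the pooling of mice per sample, the labels do not tie replicates to pools or sorting days, and p-values measure the spread between these samples.

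The libraries hold 11851853 to 16306540 reads on genes, and 1 read equals 0.759 to 1.477 normalized counts, which are reads divided by the size factor of the library. The targeted genes do not check the labels, since a total over a whole gene cannot show the loss of floxed exons alone: Stim1 had 1139 and 1377 normalized counts in unstimulated WT and 1538 and 1868 in unstimulated Stim1/2-deficient libraries, and Stim2 had 906 and 908 against 904 and 744. The 6 Treg markers were present in every library but not at even levels. They summed to 91902 and 85605 normalized counts in unstimulated WT and 40109 and 47805 in unstimulated Stim1/2-deficient libraries. After stimulation the sums were 94707 and 112665 in WT and 67927 and 85817 in Stim1/2-deficient libraries. Between genotypes 2 of 6, Ctla4 and Ikzf2, were called lower in unstimulated and 0 in stimulated Stim1/2-deficient cells. Unstimulated Stim1/2-deficient replicate 1 stood apart by markers of other cells. Its 10 macrophage markers summed to 9901 normalized counts against 1485 in replicate 2, 224 and 269 in unstimulated WT and 97.1 to 172 in the 4 stimulated libraries, and C1qa was at 0 in all WT and all stimulated libraries. Of these markers, 7 of 10 were called higher in the unstimulated contrast of genotypes. The 10 B cell markers summed to 3978 and 978 in the unstimulated Stim1/2-deficient pair, 349 and 391 in unstimulated WT, 1116 and 231 in stimulated WT and 1730 and 382 in stimulated Stim1/2-deficient libraries, with 2 of 10 called higher. Sums of 9 neutrophil markers were 1227 and 545 in the unstimulated Stim1/2-deficient pair and 142 to 891 in the other 6 libraries (585 and 302 in stimulated WT, 891 and 158 in stimulated Stim1/2-deficient cells), and those of 10 erythroid markers were 380 and 148 against 73.4 to 194, with no gene of either list called between the unstimulated genotypes. With stimulation of Stim1/2-deficient cells all 10 macrophage markers and 1 of 10 B cell markers were called lower. Among 8 germinal centre B cell and plasma cell markers, Jchain was called higher and Mki67, Prdm1 and Irf4, which Treg cells express too, were called lower in unstimulated Stim1/2-deficient cells. The part of these other cells in the values of histone genes was not tested. Results of histone genes are given with and without that library where it decides a call that is named. Genes of the other lists were fitted with all 8 libraries only, so that their calls carry no such check.

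All 70 members were matched to RefSeq by symbol or synonym, 1 of them to 2 entries. On GRCm38.p6 the 56 Hist1 genes lie on chromosome 13, 55 of them between 21715711 and 23934913, the 10 Hist2 genes on chromosome 3 from 96219885 to 96270192, the 3 Hist3 genes on chromosome 11 from 58948911 to 58955192 and the single Hist4 gene on chromosome 6 from 136803993 to 136804431. RefSeq classes 3 members as pseudogenes. The table itself holds symbols only. By class the members are 6 H1, 20 H2A, 19 H2B, 12 H3 and 13 H4 genes. Of the 70, 28 passed the filter of a mean of at least 10 normalized counts over the 8 libraries and were tested: 5 H1, 6 H2A, 9 H2B, 2 H3 and 6 H4 genes. For 6 of the 28 the mean of the other 3 groups is under 10, so that they passed only with the group where they are highest. These are Hist1h2ai, Hist1h3g, Hist1h4a, Hist1h4i and Hist2h2ab, highest in stimulated WT, and Hist4h4, highest in unstimulated Stim1/2-deficient cells, and a difference of that group is in part set by the filter. Counts are therefore also given for the other 22. Another 29 members had 2 to 91 reads over all libraries, and 13 had no read in any library, 7 of them H2A genes. Of the testis-type genes, Hist1h1t and Hist1h2ba had at most 1 read in any library and Hist1h2aa was at 0 in all.

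Sequence sets a limit on what reads can be assigned to a member. With reads of 50 bases, as the methods state, a window shared between copies cannot be placed. In the protein-coding transcripts of GENCODE vM1, which hold 67 members, the tested members had a median of 64.9% of their 50-base windows in no other gene, from 17.2% for Hist1h2bl to 100% for Hist1h1a, Hist1h1b, Hist2h2be and Hist4h4. Of the 12 members at 0 that have a transcript there, 7 had under 20% such windows and 5 had 0%, namely Hist1h2ao, Hist1h2ap, Hist1h2bq, Hist2h2aa1 and Hist2h2aa2. A value of 0 for these members is therefore no measure of expression.

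The stem-loop that ends these mRNAs was searched for behind the stop codon by its shape, a stem of 6 bases that starts with GG and a loop of 4 bases that starts with TT. The search counts a stem as paired only where all of its bases match. It was found in 42 of the 50 members with at least 45 annotated bases after the stop codon, starting 22 to 59 bases behind it. The letters fell into few forms. The form of Hist1h2bm was shared by 27 members, of the H1, H2A, H2B and H3 classes, and by no H4 gene, whereas the form of Hist1h4d was found in 6 members, all of them H4 genes. Shown are 8 tested members, as DNA letters of the transcript with 7 bases on each side and the stem-loop in capitals, the first 4 from transcripts that end soon after it and the last 4 from transcripts that run on.
Hist1h1e: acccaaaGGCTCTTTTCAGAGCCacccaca
Hist1h2bm: acacaaaGGCTCTTTTCAGAGCCactaagc
Hist1h4d: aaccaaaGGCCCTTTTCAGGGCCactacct
Hist2h2ac: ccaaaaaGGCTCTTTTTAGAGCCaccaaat
Hist1h3e: ccaaaacGGCTCTTTTAAGAGCCacctcca
Hist1h1c: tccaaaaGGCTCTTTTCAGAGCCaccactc
Hist3h2a: caccaaaGGCTCTTTTCAGAGCCacccaca
Hist2h4: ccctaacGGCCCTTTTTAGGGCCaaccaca
The annotated transcript runs on for more than 300 bases after the stop codon in 15 members, 10 of them tested: Hist1h1c, Hist1h1d, Hist1h2ac, Hist1h2ai, Hist1h2bc, Hist1h2be, Hist1h3e, Hist2h2be, Hist2h4 and Hist3h2a. Some of these names, and those of the members at 0 above, were chosen after the values were seen. In Hist3h2a it ends 1544 bases after the stop codon although its stem-loop begins at base 42, and in Hist2h4 the lengths are 1289 bases and base 39. The other 18 tested members have at most 200 annotated bases there, 4 of them none. Of each member the annotated transcript with most bases after the stop codon was taken. The limit of 300 bases was chosen after the values were seen. Libraries were made from polyadenylated RNA, which holds stem-loop mRNAs only in part, and the part of this step in the values was not tested.

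Promoters of 61 members were matched in RefSeq on GRCm38.p6, each from 250 bases before to 50 bases after the start site. Letters were searched on both strands. CCAAT, the site of the factor NF-Y, was present in 52 of 61 promoters (85.2%) against 37.4% of all 32851 promoters. It was in every promoter of the H1, H2A, H2B and H3 genes and in 3 of 12 of the H4 genes. The TATA box TATAAA was in 57.4% against 13.6%, the octamer ATTTGCAT in 21.3% against 1.74%, with 6 of 16 H2B and 7 of 17 H2A genes, and AAACACA, an element described in H1 genes, in 5 of 6 H1 genes, 14.8% of all members and 7.18% of all promoters. The 250 bases before the start site are shown for 3 members that differ in how they changed, Hist1h4d (chr13:23581318-23581567), Hist1h2bm (chr13:21721794-21722043) and Hist3h2a (chr11:58954435-58954684), all on the plus strand, with the matches in capitals.
Hist1h4d: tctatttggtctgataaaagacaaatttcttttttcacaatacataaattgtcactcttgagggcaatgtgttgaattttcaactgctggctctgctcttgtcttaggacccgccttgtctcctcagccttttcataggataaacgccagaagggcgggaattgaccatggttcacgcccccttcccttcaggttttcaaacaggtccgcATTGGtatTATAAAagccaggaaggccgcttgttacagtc
Hist1h2bm: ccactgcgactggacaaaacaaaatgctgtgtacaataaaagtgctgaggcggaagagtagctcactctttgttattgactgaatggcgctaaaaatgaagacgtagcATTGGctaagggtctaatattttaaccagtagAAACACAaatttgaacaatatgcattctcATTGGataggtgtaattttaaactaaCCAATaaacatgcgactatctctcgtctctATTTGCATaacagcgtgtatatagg
Hist3h2a: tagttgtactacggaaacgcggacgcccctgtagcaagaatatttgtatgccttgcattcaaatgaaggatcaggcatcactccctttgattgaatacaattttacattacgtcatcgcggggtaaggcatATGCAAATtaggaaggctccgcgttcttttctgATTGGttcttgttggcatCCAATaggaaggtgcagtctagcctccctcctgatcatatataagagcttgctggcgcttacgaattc
In Hist1h4d the TATA box starts 32 bases and a CCAAT on the opposite strand 40 bases before the start site. Hist1h2bm holds 3 matches of CCAAT and the octamer at 25 bases, and Hist3h2a holds 2 matches of CCAAT and the octamer on the opposite strand at 119 bases. A match is a description of these letters only.

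The summed level of the 70 members was highest and most even in stimulated WT cells, with 3112 and 3210.3 normalized counts. It was 2664 and 1761 in unstimulated WT, 2114 and 974 in unstimulated Stim1/2-deficient and 1749 and 1035 in stimulated Stim1/2-deficient libraries. As means these are 3161 ± 69.4, 2213 ± 639, 1544 ± 806 and 1392 ± 505 (SD, n = 2 each). As a share of all reads the sums were 0.0257% and 0.026% in stimulated WT, 0.0151% and 0.0101% in unstimulated WT, 0.0136% and 0.00581% in unstimulated and 0.014% and 0.00852% in stimulated Stim1/2-deficient libraries, so that the order of the 2 Stim1/2-deficient groups turns with the scaling. After stimulation both Stim1/2-deficient libraries lay below both WT libraries, whereas the unstimulated groups overlapped. In normalized counts this overlap rests on 1 gene, Hist3h2a. It had 709 of the 2114 normalized counts in unstimulated Stim1/2-deficient replicate 1, and 153 and 198 in unstimulated WT libraries. Since bulk RNA was measured, fewer cells that express histone genes and less histone mRNA per cell cannot be told apart. Each library rests on 729 to 4228 reads of histone genes. The 5 members with most reads held 61.02% of them and Hist1h4d alone 24.3%.

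**Figure D1:**
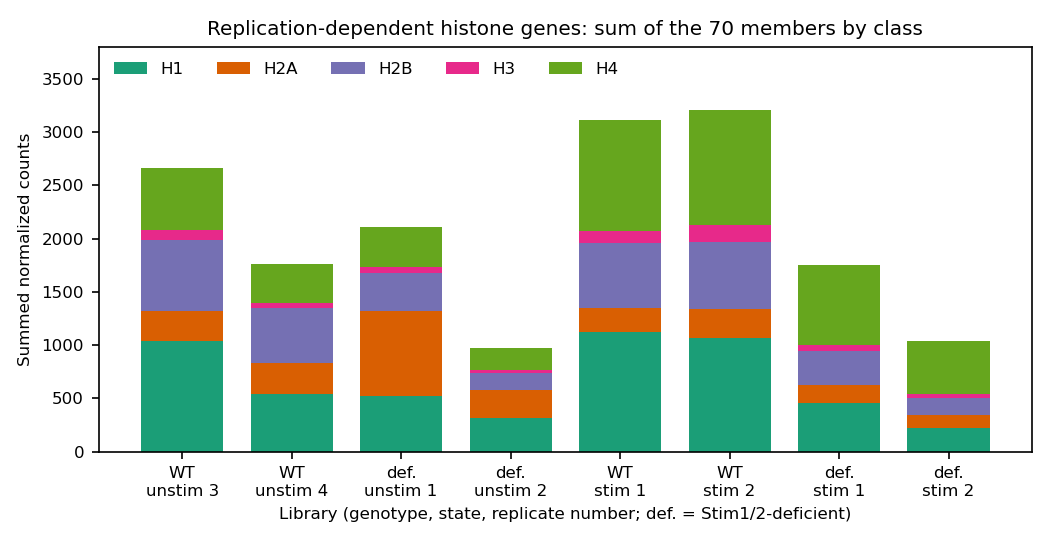
Summed normalized counts of the 70 members in each library (bars from 0, 1 bar a library), divided by histone class (colours). The stimulated WT libraries reach 3112 and 3210.3, and the H2A part is tallest in unstimulated Stim1/2-deficient replicate 1, at 801.

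The classes did not follow the same order. H4 genes summed to 469.96 ± 155 normalized counts in unstimulated and 1059 ± 31.02 in stimulated WT cells, and to 293 ± 116 and 618 ± 182 in Stim1/2-deficient cells (SD, n = 2 each), with no overlap between the states in either genotype. H1 had 792 ± 356, 422 ± 143, 1093 ± 37.05 and 340 ± 166 in unstimulated WT, unstimulated Stim1/2-deficient, stimulated WT and stimulated Stim1/2-deficient cells, and H2B had 589.8 ± 109, 256 ± 137, 616 ± 18.5 and 247 ± 112. In both classes each WT library lay above each Stim1/2-deficient library in normalized counts, in either state. For H1 in unstimulated cells the nearest libraries were close, with 541 in WT replicate 4 and 523 in Stim1/2-deficient replicate 1. As a share of all reads the order of these 2 libraries turns. The sums of the H3 genes were 25.4 to 164 normalized counts. H2A was the exception. Its sum was 801 and 258 in unstimulated Stim1/2-deficient libraries against 276 and 292 in WT, and 1 gene, Hist3h2a, made 88.5% and 89.1% of it there, 55.5% and 67.7% in unstimulated WT and 13.3% to 38.7% after stimulation. No test was run on sums.

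Per kilobase of transcript, Hist1h4d had the highest level, 1199 normalized counts over the 8 libraries, followed by Hist1h1b with 312, Hist1h2bm and Hist1h1e with 272 each, Hist1h2bl with 121, Hist1h4c with 117 and Hist3h2a with 94.6. These orders rest on 1 annotated transcript a gene, the one with most bases after the stop codon, and neighbours with like values were not compared. For Hist3h2a that length is 1990 bases. Where shorter transcripts are made, the level per kilobase is understated. The rest of the tested members had at most 88.4 per kilobase. Among those with a high total but no call in any contrast, the H2B gene Hist1h2be had 75.5 and 48.8 normalized counts in unstimulated WT, 89.1 and 29.4 in unstimulated Stim1/2-deficient, 96.6 and 87.3 in stimulated WT and 48.4 and 31.2 in stimulated Stim1/2-deficient libraries. The H3 gene Hist1h3e had 16.2 and 10.3, 8.39 and 8.01, 32.0 and 32.7, and 10.3 and 16.04 in the same order. Both genes were higher in each stimulated WT library than in each stimulated Stim1/2-deficient library, and Hist1h2be overlapped between the unstimulated groups.

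**Figure D2:**
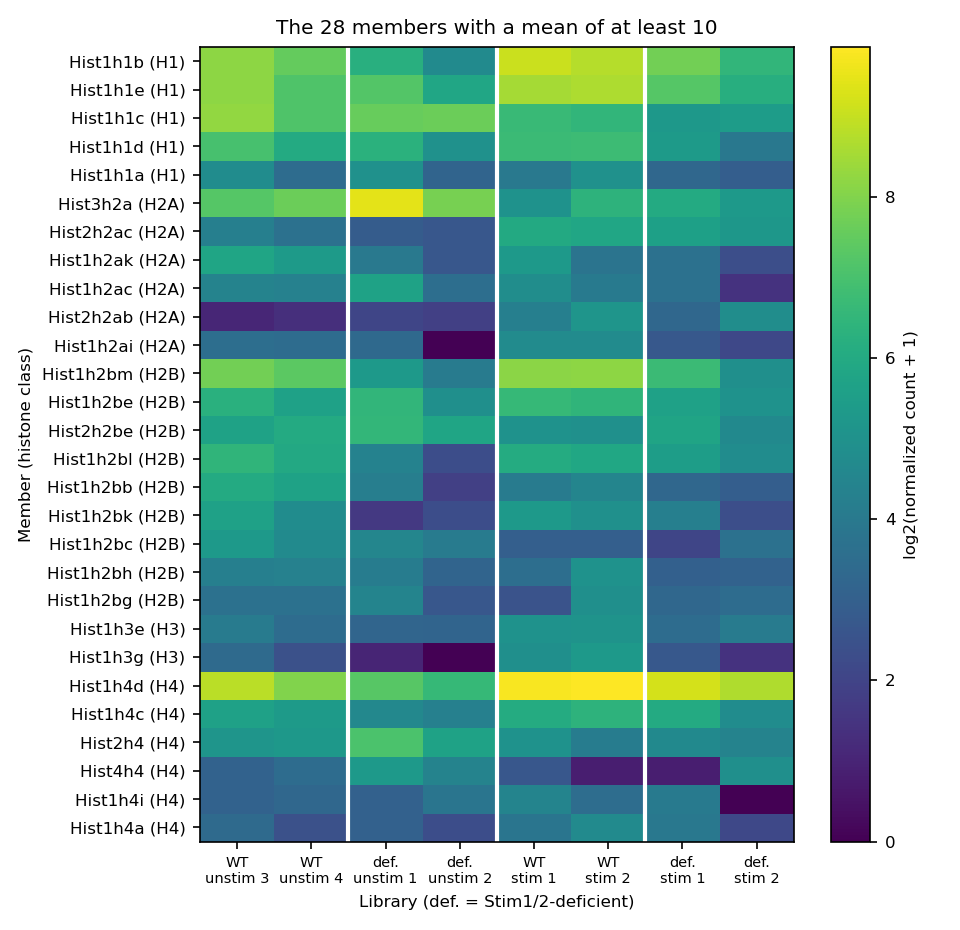
Log2 of normalized count + 1 (colour) for the 28 tested members (rows, by class and mean level) in the 8 libraries (columns, white lines between groups). Hist1h4d is high in all libraries and highest in stimulated WT, where it has 874 and 928 normalized counts, while Hist3h2a is highest in the unstimulated Stim1/2-deficient pair, with 709 and 229.7.

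In unstimulated cells, 5 members were lower in Stim1/2-deficient than in WT cells and 0 were higher, of 28 tested. Of all 15419 tested genes 3.35% were called lower and 1.38% higher. The 5 were the H4 gene Hist1h4d, the linker histone gene Hist1h1b and the H2B genes Hist1h2bm, Hist1h2bl and Hist1h2bk. Hist1h4d had 456 and 251 normalized counts in WT and 156 and 96.2 in Stim1/2-deficient libraries, a log2 fold change of -1.46 (SE 0.34, limma adjusted p = 0.0439). Hist1h1b had 294 and 182 against 74.5 and 25.4 (log2 fold change -2.38, SE 0.54, limma adjusted p = 0.0374). Hist1h2bm had 214 and 167 against 39.9 and 16.0 (log2 fold change -2.85, SE 0.59, limma adjusted p = 0.0281). For each of these genes every Stim1/2-deficient library lay below both WT libraries. Hist1h2bl had 87.4 and 60.6 against 19.9 and 4.01 (log2 fold change -2.85, SE 0.66, limma adjusted p = 0.0397), and only 17.2% of its windows are its own. Hist1h2bk, with a log2 fold change of -3.23 (SE 0.77, limma adjusted p = 0.0448), rests on 45 and 18 reads in WT and 2 and 3 reads in Stim1/2-deficient libraries, a ratio of 13.4 with a 95% interval of 5.44 to 42.6 that covers counting error only. It was not called without unstimulated Stim1/2-deficient replicate 1.

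Over the 28 members, 21 had a log2 fold change below 0, with a median of -0.67 beside -0.01 over all tested genes. Both Stim1/2-deficient libraries lay below both WT libraries in 14 members, beside 27.1% of all tested genes, and above them in 4, beside 26.5%. Among the 22 members that pass the filter without their highest group the counts were 12 and 2, with all 5 calls. The 4 were Hist2h2ab, Hist2h4, Hist3h2a and Hist4h4, which lie outside the Hist1 cluster, and 4 of 28 is below the share of all genes. The other tested members outside that cluster did not follow them. Hist2h2ac was among the 14 lower members, and Hist2h2be overlapped between the genotypes. Hist3h2a, an H2A gene, had 153 and 198 normalized counts in WT and 709 and 229.7 in Stim1/2-deficient libraries, with a log2 fold change of 1.21 (SE 0.57, limma adjusted p = 0.251) that was 0.40 without Stim1/2-deficient replicate 1. Hist2h4, an H4 gene, had 34.5 and 36.9 against 132 and 50.8 (log2 fold change 1.18, SE 0.56, limma adjusted p = 0.253), or 0.50 without that library. The single Hist4 gene Hist4h4 had 7.55 and 10.3 against 38.8 and 20.03 (log2 fold change 1.55, SE 1.25, limma adjusted p = 0.508). None of these passed, and the highest value of each lies in the library with the highest macrophage and B cell markers, whose part was not tested. Hist2h2ab had 1 to 3 reads in each of these 4 libraries. In the Hist3 cluster, Hist3h2ba had 8.86 to 16.2 and the pseudogene Hist3h2bb-ps 1.34 to 4.19 normalized counts in unstimulated libraries, with both genotypes overlapping.

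The calls in unstimulated cells were not firm. Hist1h2bm was the single member called by edgeR and after rescaling to equal totals or upper quartiles, beside 2.29% of all genes called lower and 0.85% higher by edgeR, whereas DESeq2 called the 5 named above, beside 5.3% lower and 3.38% higher. The count was 0 without unstimulated WT replicate 3 or 4 or without stimulated WT replicate 1 or 2, which enter the common spread. Calls were then few over all genes as well, with 0.0519%, 0.104%, 1.3% and 1.11% called lower. It was 1, Hist1h2bk, without unstimulated Stim1/2-deficient replicate 2, beside 5.99% of all genes. Without unstimulated Stim1/2-deficient replicate 1, the library with the highest macrophage and B cell markers, the median log2 fold change over the 28 members was -1.08. Over all tested genes it was 0.03. Replicate 2, which then stands alone for its group, held such markers too. Its macrophage markers summed to 1485 against 224 and 269 in unstimulated WT, and its B cell markers to 978 against 349 and 391.

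**Figure D3:**
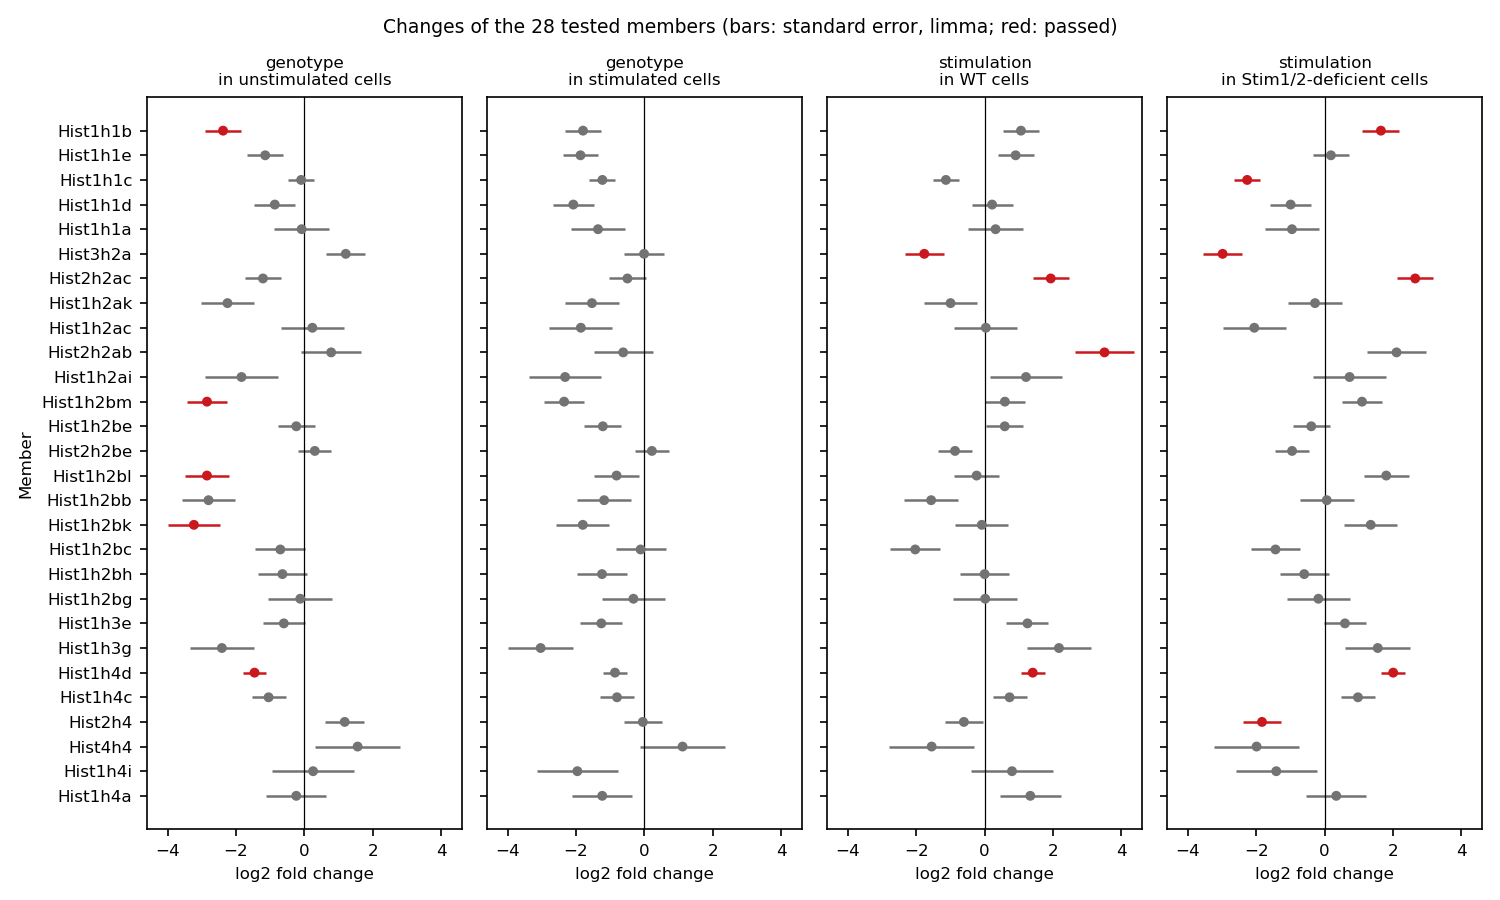
Log2 fold changes (points) with standard errors (bars) of the 28 tested members in 4 contrasts, from limma, with members in the order of the colour map and red for those that passed. In unstimulated cells 21 of 28 lie below 0 and in stimulated cells 26 of 28, with 5 and 0 called lower.

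In stimulated cells, 26 of 28 members had a lower fitted level in Stim1/2-deficient than in WT cells, with a median log2 fold change of -1.23 beside 0.02 over all tested genes. None passed in limma, where 0.11% of all genes were called lower and 0.162% higher. At an unadjusted p under 0.05, 9 members were lower by more than 1.5-fold, beside 1072 of 15419 genes. edgeR called 0, with 8 at an unadjusted p under 0.05 and 0.00649% of all genes called higher, and DESeq2 called 3 lower, Hist1h1b, Hist1h1e and Hist1h2bm, beside 1.94% of all genes called lower and 1.63% higher by that tool. With the replicate number as a block the same 3 genes were called lower, beside 1.31% of all genes lower and 1.24% higher, although nothing in the labels says that the numbers pair the samples. Both Stim1/2-deficient libraries lay below both WT libraries in 19 of 28 members, beside 23.1% of all tested genes, and above them in 0, beside 24.3%. Among the 22 members that pass the filter without their highest group these counts were 17 and 0, and 21 had a log2 fold change below 0.

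Hist1h1e, a linker histone gene, had 365 and 402 normalized counts in stimulated WT and 152 and 70.9 in stimulated Stim1/2-deficient libraries (log2 fold change -1.87, SE 0.52, limma adjusted p = 0.146). Hist1h1b had 534 and 439 against 218 and 87.8 (log2 fold change -1.80, SE 0.54, limma adjusted p = 0.165). Hist1h2bm had 283 and 289 against 106 and 28.7 (log2 fold change -2.35, SE 0.59, limma adjusted p = 0.113). In these 3 genes the WT replicates were close to each other and the Stim1/2-deficient replicates far apart. Hist1h4d had 874 and 928 against 600.3 and 408 (log2 fold change -0.86, SE 0.34, limma adjusted p = 0.293). The H3 gene Hist1h3g had 28.8 and 38.7 against 5.56 and 1.69, but passed the filter only through its level in stimulated WT. The H1 gene Hist1h1d had 104 and 107 against 40.5 and 14.4, without overlap. Without stimulated Stim1/2-deficient replicate 1, 5 members were called lower, Hist1h1b, Hist1h1d, Hist1h1e, Hist1h2bm and Hist1h4i, beside 3.57% of all genes called lower and 1.37% higher. Hist1h4i then rests on 1 library with 0 reads, while the library left out had 15.9 normalized counts against 21.04 and 10.6 in WT.

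Hist3h2a and Hist2h4, which stood above WT before stimulation, showed no such order afterwards. Hist3h2a had 31.2 and 82.0 normalized counts in WT and 63.5 and 39.7 in Stim1/2-deficient libraries, with a log2 fold change of -0.01 (SE 0.57). Hist2h4 had 32.0 and 16.7 against 24.6 and 20.3, with a log2 fold change of -0.05 (SE 0.56). With errors of this size the genotypes are not shown to be equal. Hist2h2be, an H2B gene, had 32.0 and 29.6 against 52.4 and 24.5, and Hist4h4 had 5.46 and 0.76 against 0.79 and 28.7, so that its replicates differed by more than its groups.

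Stimulation of WT cells raised 3 members and lowered 1 of 28, where 10.2% of all genes were called higher and 13.1% lower. The count of higher members is close to the share of all genes and that of lower members is below it. Hist1h4d rose from 456 and 251 to 874 and 928 normalized counts (log2 fold change 1.41, SE 0.34, limma adjusted p = 0.0163), and the H2A gene Hist2h2ac from 18.4 and 11.8 to 62.4 and 56.2 (log2 fold change 1.93, SE 0.53, limma adjusted p = 0.0259). Hist2h2ab, also an H2A gene, rose from 1 read in each unstimulated WT library to 23 and 45 reads, a ratio of 21.0 with a 95% interval of 5.59 to 177 for counting error only (log2 fold change 3.51, limma adjusted p = 0.0170). It passed the filter only through the stimulated libraries, so that its change is in part set by that choice, and without such members 2 calls of higher levels are left. Hist3h2a fell from 153 and 198 to 31.2 and 82.0 (log2 fold change -1.76, SE 0.57, limma adjusted p = 0.04996, just inside the limit), and was not called by edgeR or after rescaling to equal totals. By edgeR 3 members were higher, beside 9.91% of all genes, and 1 was lower, Hist1h1c. Over the 28 members the median was 0.27 beside 0.01 over all tested genes. Rescaling to equal totals moved the median of all genes to 0.52 and that of the members to 0.77. Both stimulated libraries lay above both unstimulated ones in 13 members, beside 35% of all genes, and below them in 8, beside 36%. The 3 increases were 1 without unstimulated WT replicate 3 and 0 without unstimulated WT replicate 4 or stimulated WT replicate 1 or 2, where the share of all genes called higher was 3.28%, 2.54%, 2.72% and 2.23%. Hist3h2a was not called without any 1 of unstimulated WT replicates 3 and 4, stimulated WT replicates 1 and 2 and stimulated Stim1/2-deficient replicates 1 and 2.

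In Stim1/2-deficient cells, stimulation raised 3 members, Hist1h1b, Hist1h4d and Hist2h2ac, and lowered 3, Hist1h1c, Hist2h4 and Hist3h2a, where 13% of all genes were called higher and 12% lower. Hist1h4d rose from 156 and 96.2 to 600.3 and 408 normalized counts (log2 fold change 2.00, SE 0.34, limma adjusted p = 0.00327). Hist2h2ac rose from 6.29 and 5.34 to 47.6 and 36.3 (log2 fold change 2.65, SE 0.53, limma adjusted p = 0.00645). Hist1h1b rose from 74.5 and 25.4 to 218 and 87.8 (log2 fold change 1.65, SE 0.54, limma adjusted p = 0.0479). These 3 lay above their unstimulated values in both libraries. Hist1h1c, a linker histone gene, fell from 189.8 and 199 to 37.3 and 42.2 (log2 fold change -2.26, SE 0.38, limma adjusted p = 0.00303), and its replicates were close in each state. Hist3h2a fell from 709 and 229.7 to 63.5 and 39.7 (log2 fold change -2.98, SE 0.57, limma adjusted p = 0.0055), and by 2.17 on the log2 scale without unstimulated Stim1/2-deficient replicate 1, still called. Hist2h4 fell from 132 and 50.8 to 24.6 and 20.3 (log2 fold change -1.83, SE 0.56, limma adjusted p = 0.0378), or by 1.15 without that library, not called. In WT cells Hist1h1c had 304 and 142 before and 101 and 88.1 normalized counts after stimulation (log2 fold change -1.13, SE 0.38, limma adjusted p = 0.0562). The 2 contrasts use different libraries. Both stimulated Stim1/2-deficient libraries lay above both unstimulated ones in 9 members, beside 30.8% of all genes, and below them in 6, beside 30.6%. Hist1h1c, Hist1h4d, Hist2h2ac and Hist3h2a were called in Stim1/2-deficient cells under every alternative that tested them. Hist1h1b was called under 9 of 20 and not without any 1 of the 4 WT libraries, unstimulated Stim1/2-deficient replicate 2 or stimulated Stim1/2-deficient replicate 1. Hist2h4 was called under 10 of 19 and not without unstimulated WT replicate 3 or 4, unstimulated Stim1/2-deficient replicate 1 or stimulated Stim1/2-deficient replicate 1 or 2.

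**Figure D4:**
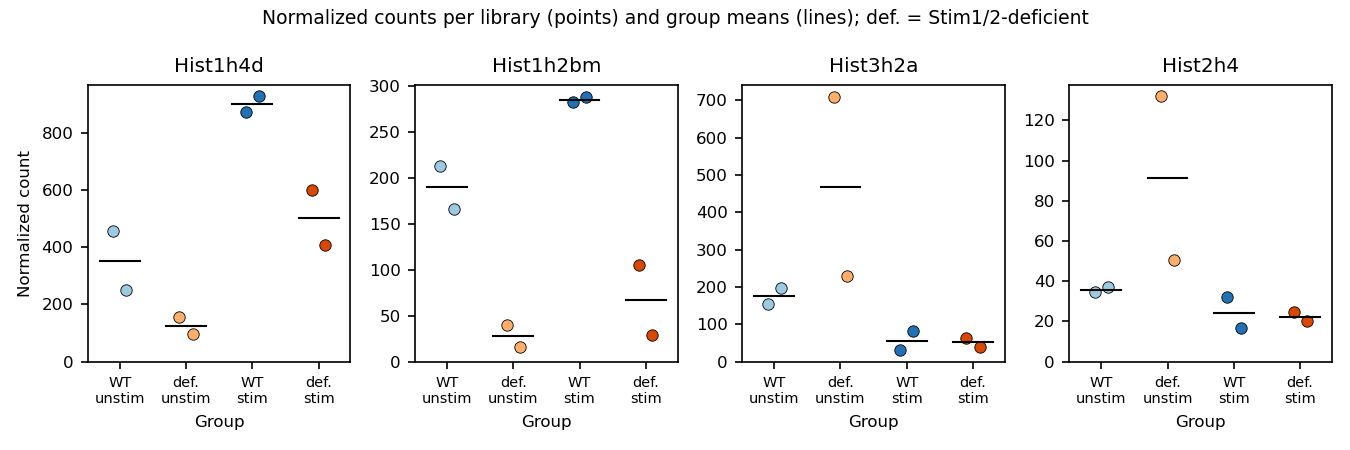
Normalized counts (linear axes from 0) of 4 members in the 2 libraries of each group (points) with group means (lines). Hist1h4d and Hist1h2bm are lower in Stim1/2-deficient cells in both states, while Hist3h2a and Hist2h4 are highest in 1 unstimulated Stim1/2-deficient library, at 709 and 132.

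The difference of the genotype effect between the states was called for 0 of 28 members in limma, and for 0% of all genes. At an unadjusted p under 0.05 and over 1.5-fold it was 0 members, edgeR and DESeq2 called 0 members, with 0 and 1 at an unadjusted p under 0.05, and DESeq2 called 0.0843% of all genes in one direction and 0.24% in the other. Among the named members the smallest p-values were those of Hist1h2bl, with 2.03 (SE 0.93, limma adjusted p = 0.614), and Hist1h1c, with -1.13 (SE 0.54, limma adjusted p = 0.625). That the count of members called lower was 5 in one state and 0 in the other is therefore no measured difference between states.

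Members with a long annotated 3′ end and the others differed in their share of histone counts. The 10 tested members with more than 300 annotated bases after the stop codon made 33.2% and 37.3% of the counts of the 28 tested members in unstimulated WT and 68.7% and 68.1% in unstimulated Stim1/2-deficient libraries. After stimulation they made 16.6% and 16.3% in WT and 18.2% and 20.7% in Stim1/2-deficient libraries. The SD of the share within a group was 0.181 to 2.87 percentage points, although the sums of the unstimulated Stim1/2-deficient pair differed by 2.17-fold. Without Hist3h2a the shares were 28.9% and 28.8%, 51.6% and 57.5%, 15.7% and 13.98%, and 14.9% and 17.4% in the same order. In normalized counts the long members summed to 831 and 619 in unstimulated WT and 1379 and 629 in unstimulated Stim1/2-deficient cells, and the other 18 members to 1671 and 1041 against 629 and 295. The median log2 fold changes were -0.17 for the long and -1.18 for the other members between unstimulated genotypes, -1.22 and -1.24 between stimulated genotypes, -0.28 and 0.66 with stimulation in WT and -1.21 and 0.66 with stimulation in Stim1/2-deficient cells. All 5 members called lower between unstimulated genotypes were among the 18. The 4 calls of lower levels with stimulation were of Hist3h2a (in both genotypes), Hist1h1c and Hist2h4, all long. The 6 calls of higher levels were of Hist1h4d and Hist2h2ac, each in both genotypes, Hist1h1b and Hist2h2ab, all among the other 18. Hist2h2ab passed the filter only with its level in stimulated WT. Hist1h1b, Hist1h2bl and Hist2h2ab have no annotated bases after the stop codon. The length of their 3′ ends is therefore not known, and their calls cannot be set against length. The split was made after the values were seen and has no test.

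In 3 of 4 groups the histone genes as a set were shifted towards 1 of the 2 replicates, which genes as a whole were not. In unstimulated Stim1/2-deficient cells the median log2 ratio of replicate 1 to 2 was 1.15 over the 28 members beside 0.04 over all tested genes, and 25 of 28 members were higher in replicate 1. More than 2-fold apart were 15 of 28 members (53.6%) and 18.7% of all tested genes, and all 15 were higher in replicate 1. Such shares, here and for the other groups, compare sets of unlike level. A mean of at least 100 was reached by 6 of the 28 members and by 9147 of the 15419 genes. Low counts widen ratios by counting alone, and genes of like level were not compared. In stimulated Stim1/2-deficient cells the median ratio of replicate 1 to 2 was 0.64 beside 0.00 and 21 members were higher in replicate 1, with 15 members more than 2-fold apart, 12 of them higher in replicate 1, beside 18.2% of all genes. In unstimulated WT cells the ratio of replicate 3 to 4 was 0.47 beside 0.02, again with 21 members higher in the first, but 3 members (10.7%) were more than 2-fold apart beside 8.2% of all genes. In stimulated WT cells the ratio was -0.02 beside -0.01, with 13 members higher and 15 lower in replicate 1.

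**Figure D5:**
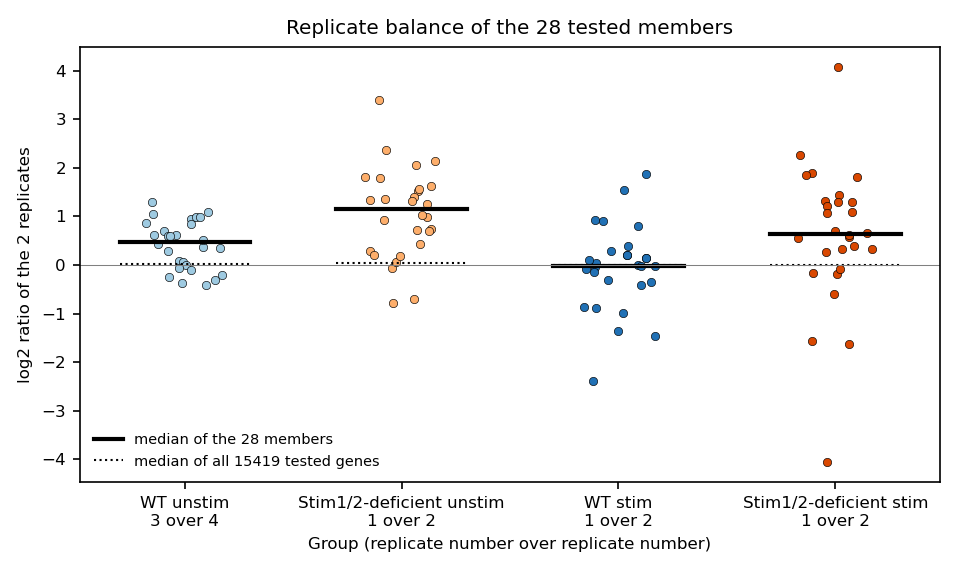
Log2 ratio of the 2 replicates of each group for the 28 tested members (points), with the median over members (solid line) and over all 15419 tested genes (dotted line). The medians over members are 0.47, 1.15, -0.02 and 0.64 from left to right, and those over all genes lie between -0.01 and 0.04.

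Single members show what lies behind these medians. In unstimulated Stim1/2-deficient cells Hist3h2a had 676 reads in replicate 1 and 172 in replicate 2 (log2 ratio 1.62, counting error 0.12), Hist1h1b 71 and 19 (1.52, counting error 0.37) and Hist1h1e 142 and 42 (1.39, counting error 0.25), whereas Hist1h1c had 181 and 149 (-0.07, counting error 0.16). The widest ratio was that of Hist1h2ai, an H2A gene with 9 reads and 0. In stimulated Stim1/2-deficient cells Hist1h2bm had 133 and 34 reads (1.84, counting error 0.28) and Hist1h1b 275 and 104 (1.30, counting error 0.17), and the widest ratio was that of the H4 gene Hist1h4i, with 20 reads and 0. In stimulated WT cells Hist1h4d had 1121 and 1222 reads (-0.09, counting error 0.06), and the widest ratio was that of the H2B gene Hist1h2bg, with 6 and 38 reads. In unstimulated WT cells Hist1h4d had 423 and 170 reads (0.86, counting error 0.13) and the widest ratio was that of the H1 gene Hist1h1a, with 25 and 7 reads. In the Stim1/2-deficient pairs the ratios of Hist1h1b, Hist1h1e, Hist1h2bm in stimulated cells and Hist3h2a in unstimulated cells were more than 3 times their counting error, and those of Hist1h1c were within it.

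Other measures of the same pairs are given beside this, and their part was not tested. The 34 S phase genes summed to 13332 and 11931 normalized counts in unstimulated Stim1/2-deficient libraries, a ratio of 1.12 where the histone sum gave 2.17, and to 28060 and 17361 after stimulation, a ratio of 1.62 where the histone sum gave 1.69. In unstimulated WT the ratios were 1.28 and 1.51 and in stimulated WT 0.972 and 0.969. The B cell markers had ratios of 4.07 and 4.52 in the unstimulated and stimulated Stim1/2-deficient pairs, but also of 4.83 in the stimulated WT pair, whose histone sums were even. The macrophage markers had ratios of 6.67, 1.77 and 1.19 in these 3 pairs and the neutrophil markers 2.25, 5.64 and 1.94. Mki67, a marker of dividing cells, had 4924 and 1400 normalized counts in the unstimulated and 2925 and 913 in the stimulated Stim1/2-deficient pair, against 17091 and 13862 and 8560 and 7417 in WT. Histone counts were 7.48% and 6.32% of the S phase sum in unstimulated WT, 15.9% and 8.16% in unstimulated Stim1/2-deficient, 8.47% and 8.49% in stimulated WT and 6.23% and 5.96% in stimulated Stim1/2-deficient libraries. In the unstimulated Stim1/2-deficient pair Hist3h2a alone gave 709 of 2114 and 229.7 of 974 histone counts. The percentages of this pair and its ratio of 2.17 therefore rest in part on 1 gene.

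Genes that work with histones were read from lists. Of 34 S phase genes 33 were tested, and 18 were called lower and 0 higher in unstimulated Stim1/2-deficient cells, with a median log2 fold change of -1.78. Of all genes 3.35% were called lower and 1.38% higher there. Among the 18 S phase genes called lower were Ccna2, the cyclin of S phase (-2.76, limma adjusted p = 0.019), Uhrf1, which keeps DNA methylation (-2.73, limma adjusted p = 0.0189), Gins2 of the replicative helicase (-2.58, limma adjusted p = 0.00882) and Rrm2 of ribonucleotide reductase (-2.33, limma adjusted p = 0.0209). After stimulation 0 were called, beside 0.11% of all genes lower and 0.162% higher, with 32 of 33 below 0 and a median of -0.90. With stimulation 3 rose and 1, E2f2, fell in WT cells (median 0.36), beside 10.2% of all genes higher and 13.1% lower. The 3 increases in WT cells are close to that share. In Stim1/2-deficient cells 13 rose and 1, again E2f2, fell (median 1.03), beside 13% of all genes higher and 12% lower. Of 19 histone chaperones, which carry histones to DNA, 6 were lower in unstimulated Stim1/2-deficient cells, beside 3.35% of all genes. Chaf1a (-2.48, limma adjusted p = 0.0382) of the chromatin assembly factor CAF-1 and Asf1b (-2.46, limma adjusted p = 0.0181) changed most. In stimulated cells 0 were lower, beside 0.11% of all genes.

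The genes that make histone mRNA gave calls with stimulation only. Of 15 genes of histone transcription and 3′ end processing 14 were tested and 0 passed between genotypes in either state, with medians of -0.33 and -0.14. Of all genes 3.35% were called lower and 1.38% higher between unstimulated genotypes, so that 0 of 14 is close to that share. With stimulation 2 fell and 1 rose in WT, beside 13.1% of all genes lower and 10.2% higher. In Stim1/2-deficient cells 1 fell and 4 rose, beside 12% of all genes lower and 13% higher. Slbp, the stem-loop binding protein, fell in WT (-0.63, limma adjusted p = 0.0421) and in Stim1/2-deficient cells (-0.71, limma adjusted p = 0.0258), and Ncbp2 of the cap-binding complex rose in both (0.89, limma adjusted p = 0.0196, and 1.11, limma adjusted p = 0.00717). Among 9 tested genes of replication-independent histones, which are made at all times from polyadenylated mRNA, H1f0 was lower in unstimulated Stim1/2-deficient cells (-1.85, limma adjusted p = 0.0465), with 362 and 220.1 normalized counts in WT against 109 and 54.8, and 0 passed after stimulation. H3f3b fell from 4490.4 and 3659 to 1319 and 1258 normalized counts with stimulation in WT and from 3512 and 4093 to 1455 and 1364 in Stim1/2-deficient cells. H2afx, which gives both stem-loop and polyadenylated mRNA, rose with stimulation in WT (1.05, limma adjusted p = 0.0418).

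Other RNAs that lack a long poly(A) tail were read in the same libraries. Of 18 listed, 6 were tested, 0 passed between genotypes in either state, and the medians were 0.13 in unstimulated and 0.18 in stimulated cells. Their sums were 3367 and 3163 normalized counts in the unstimulated Stim1/2-deficient pair and 2301 and 2221 in the stimulated one, with ratios of 1.06 and 1.04. In WT cells the ratios were 1.51 before and 0.812 after stimulation. With stimulation of WT cells 2 were called lower, Rn7sk and Rmrp. The mitochondrial ribosomal RNAs took 13.8% to 27.5% of the reads, with 27.5% and 18.5% in the unstimulated and 18.5% and 13.8% in the stimulated Stim1/2-deficient pair, and 0 of 2 were called between genotypes. The part of either class of RNA in the histone values was not tested.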

How the data were processed

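Polyadenylated RNA of sorted Treg cells was sequenced in 8 libraries. The deposited signal is 1 table of normalized counts, for which the authors divided the reads of each gene by 1 size factor per library. All values (100% per library, within 0.02 of a read) were whole multiples of 1 read, so reads were recovered for edgeR and DESeq2. The sources differ on how the table was made. The submitters' processing notes name bcl2fastq 1.8.4, STAR 2.7, DESeq2 and mm10, and the study's methods describe Bowtie on NCBIM37, unique alignments, removal of duplicates with Picard and counting with HTSeq. Removal of duplicates by position cannot hold for this table, since mt-Rnr2, a gene of 1582 bases, has up to 3282964 reads. Strand use in counting is not given in the sources used here. Sequences and coordinates are those of GENCODE vM1 and RefSeq, and the table itself holds symbols.

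The main test was limma 3.58.1 (lmFit, eBayes with trend) in R 4.3.3 on log2(value + 1), so that fold changes of low genes are understated. It was run over the 15419 genes with a mean of at least 10, in 1 model of the 4 groups, with Benjamini-Hochberg adjustment within each contrast. Calls needed more than 1.5-fold and an adjusted p below 0.05. Levels, sums and replicate ratios are descriptions. Alternatives were other pseudocounts, filters and scalings, edgeR 4.0.16 (quasi-likelihood), DESeq2 1.42.0, a 2-fold limit, the libraries of a contrast alone, each library left out and the replicate number as a block. The fits were also run on simulated counts with known fold changes, whose values are not given here. Intervals and counting errors cover counting alone.

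Members named with values were the 12 with the highest mean, the 2 highest of each class, per contrast the 5 most changed called members in either direction, the member with the widest replicate ratio in each group, all of the Hist3 and Hist4 clusters and the testis-type genes. Of each other list at most 4 genes were named, called ones with the largest change first. The members and lists were chosen with earlier results of these data known.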

Additional observations from a re-analysis of the deposited data

How the results depend on the processing

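No called member changed sign under any alternative. Of the single-member results, 97 lost and 28 gained a call, and the rest were on the same side of the threshold. Between unstimulated genotypes, the 5 members called lower were 2 with a pseudocount of 0.1, 0 with every gene above 0 tested, 3 with a mean of at least 100 (beside 2.72%, 0.865% and 5.81% of all genes, 3.35% in the report), and 1 each (1.65% to 2.36%) with equal totals, with equal totals without mitochondrial ribosomal RNAs, with equal upper quartiles, by edgeR and with the libraries of the contrast only. Their median of -0.67 was -1.30 with a mean of at least 100. Between stimulated genotypes, 0 members were 3 lower by DESeq2, beside 1.94% of all genes called lower by DESeq2 and 0.11% in the main test. With stimulation in WT cells, 1 member was lower in the main test, beside 13.1% of all genes. The count was 0 with a pseudocount of 0.1, with every gene, with equal totals, without mitochondrial ribosomal RNAs and with upper quartiles (5.3% to 12.5% of all genes). It was 2 with a pseudocount of 5, by quantile normalization and by DESeq2 (11.8% to 14.6%), and 4 with the libraries of the contrast only (17.8%). The 3 higher members, beside 10.2% of all genes, were 1 with a mean of at least 100 (14.4%) and 5 with the libraries of the contrast only (15%). The median of 0.27 was 0.75 with that mean, 0.77 with equal totals and 0.62 without mitochondrial ribosomal RNAs. With stimulation in Stim1/2-deficient cells, the 3 higher members, beside 13% of all genes, were 6 by quantile normalization, beside 14.3%. The median of -0.06 was 0.64 with a mean of at least 100 and 0.32 by quantile normalization. The median of the interaction, -0.54, was -0.11 and -0.023 under these 2. A mean of at least 100 tests fewer members, 6 of 28. For the other settings the cause was not tested.

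With 1 library left out, members called lower ranged from 0 to 5 between unstimulated genotypes (0.0519% to 5.99% of all genes, median -1.08 to -0.18, without unstimulated Stim1/2-deficient replicates 1 and 2), from 0 to 5 between stimulated genotypes (0% to 3.57%, median -1.38 to -0.91) and from 0 to 1 with stimulation in WT cells (3.76% to 15.4%), where 0 to 3 were higher (2.23% to 12.4%, median 0.025 to 0.70, without unstimulated WT replicates 4 and 3). With stimulation in Stim1/2-deficient cells 2 to 4 were lower (8.59% to 13.6%) and 2 to 4 higher (7.76% to 13.8%, median -0.99 without unstimulated Stim1/2-deficient replicate 2 to 0.67 without replicate 1). The interaction had 0 (median -1.09 to -0.0051). A group left with 1 library is assumed to vary like the others.

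With the replicate number as a block, 3 members were called lower between stimulated genotypes (median -1.23), and 3 lower and 3 higher with stimulation in Stim1/2-deficient cells (median -0.06). Deviations of same-numbered samples correlated at 0.167 and 0.257 in these contrasts, with 2 pairs each, which does not establish pairing. For the other contrasts no paired analysis was possible because the groups share no replicate numbers. Low counts limit the members: 29 had 2 to 91 reads in all.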
